A study of Mus musculus with 20 samples.

Results

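The genes described here code for 10 receptors that myeloid cells carry on their surface, measured in brain tissue of mice after LPS-sensitised hypoxia-ischemia. They are Lilrb4a, Lilr4b, Gpr84, Clec4d, Clec4e, Clec5a, Cd300lf, Pilra, Fcgr2b and Fcgr3, and they make up 10 of the 19937 genes that the arrays represent. Each gene had 1 probe set annotated to it alone, and the probe set of a gene was chosen by its mean over all 20 arrays. The 10 names were selected from earlier results of the same arrays, in which Lilr4b, Gpr84 and Lilrb4a stood among the largest differences between hemispheres. Differences between hemispheres are therefore given as a description of these genes and support nothing about them as a set.

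The study compared whole brain hemispheres of C57/Bl6 mice, described in the labels as adult, with no age, dose or time of collection stated. All 10 animals had been exposed to bacterial lipopolysaccharide (LPS) and to hypoxia-ischemia (HI, a period of low oxygen and low blood flow) that injured the left hemisphere. Of these, 5 animals received the synthetic host defence peptide IDR1018 and 5 did not. The 4 groups, with 5 arrays each, were the injured left hemisphere without peptide, the injured left hemisphere with IDR1018, the uninjured right hemisphere without peptide and the uninjured right hemisphere with IDR1018. No group was free of LPS and HI, so the right hemisphere stands as the reference and is not naive tissue. Values are log2 probe set summaries from RMA (robust multi-array average), so a difference of 1 is a doubling. A level of 1 probe set cannot be set against that of another. Precision rests on 5 animals per treatment, each giving a left and a right array. The main fits take these arrays as separate samples, so the left-right errors, intervals and p-values leave the pairing out. A fit with the animal as a block is given among the alternatives.

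Neuronal markers lay above the median of the control probe sets on all arrays (8 of 8 genes), as did astrocyte (6 of 6), oligodendrocyte (5 of 5) and endothelial markers (6 of 6), which fits the labelled tissue. Of 9 measured microglial markers 8 did so in each group. The medians of the control probe sets, a rough mark of the background, ran from 6.68 to 7.01 over the 20 arrays. In bulk tissue, fewer cells of a type and less RNA per cell cannot be told apart.

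Most of these receptors belong to paired families, in which members with similar outer domains send opposite signals. Inhibitory members carry ITIMs (immunoreceptor tyrosine-based inhibitory motifs) in their cytoplasmic tail and recruit phosphatases such as SHP-1 (Ptpn6) and SHIP-1 (Inpp5d). Activating members lack such a tail and signal through the adaptors DAP12 (Tyrobp), DAP10 (Hcst) or the Fc receptor gamma chain (Fcer1g). Of these, DAP12 and the gamma chain recruit the kinase Syk. In the brain, microglia and infiltrating myeloid cells are the main carriers of such receptors. Gpr84 stands apart in structure: it is a G protein-coupled receptor for medium-chain fatty acids on microglia, monocytes and neutrophils.

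Among the 10 genes, Lilrb4a, Pilra, Fcgr2b and Cd300lf code for inhibitory receptors. Lilr4b codes for a close relative of Lilrb4a without ITIMs. Fcgr3, Clec4d, Clec4e and Clec5a code for activating ones. Lilrb4a and Lilr4b are direct neighbours in RefSeq (0 coding genes between them), as are Clec4d and Clec4e (0), whereas 1 coding gene separates Fcgr2b and Fcgr3. Lilrb4a and Lilr4b resemble each other closely in sequence, so cross-hybridisation between their probe sets was not tested and can add to the likeness of their values.

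The promoter windows of RefSeq (GRCm38.p6), 300 bases from 250 before to 50 after a start site, were searched for the GAGGAA core of sites of PU.1, the transcription factor (gene Spi1) of the myeloid lineage. Of the 10 genes 9 had an entry and Lilrb4a had none. The 4 windows below belong to the genes with an entry that differed between hemispheres by limma in both treatments: Lilr4b (chr10:51480362-51480661, plus strand), Gpr84 (chr15:103310389-103310688, minus strand), Clec5a (chr6:40585756-40586055, minus strand) and Fcgr3 (chr1:171059345-171059644, minus strand). They are written in the direction of transcription. Capitals mark GAGGAA on either strand, so that TTCCTC is the same core on the other strand.
Lilr4b: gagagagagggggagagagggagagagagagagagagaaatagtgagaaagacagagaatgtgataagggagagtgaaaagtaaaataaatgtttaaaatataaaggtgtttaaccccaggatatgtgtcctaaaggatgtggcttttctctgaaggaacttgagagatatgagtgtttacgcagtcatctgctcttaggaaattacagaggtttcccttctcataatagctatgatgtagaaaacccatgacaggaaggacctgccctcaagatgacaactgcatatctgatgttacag
Gpr84: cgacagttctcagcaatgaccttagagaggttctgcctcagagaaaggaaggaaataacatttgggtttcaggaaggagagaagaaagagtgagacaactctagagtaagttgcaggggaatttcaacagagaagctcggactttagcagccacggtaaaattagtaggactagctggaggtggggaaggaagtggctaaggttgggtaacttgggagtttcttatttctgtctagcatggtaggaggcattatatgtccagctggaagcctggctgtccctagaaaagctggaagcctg
Clec5a: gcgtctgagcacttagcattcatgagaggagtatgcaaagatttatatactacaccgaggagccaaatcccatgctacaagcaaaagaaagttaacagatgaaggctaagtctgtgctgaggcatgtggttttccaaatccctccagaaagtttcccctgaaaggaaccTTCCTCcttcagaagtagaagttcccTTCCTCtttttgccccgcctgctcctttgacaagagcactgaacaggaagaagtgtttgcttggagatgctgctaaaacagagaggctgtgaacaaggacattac
Fcgr3: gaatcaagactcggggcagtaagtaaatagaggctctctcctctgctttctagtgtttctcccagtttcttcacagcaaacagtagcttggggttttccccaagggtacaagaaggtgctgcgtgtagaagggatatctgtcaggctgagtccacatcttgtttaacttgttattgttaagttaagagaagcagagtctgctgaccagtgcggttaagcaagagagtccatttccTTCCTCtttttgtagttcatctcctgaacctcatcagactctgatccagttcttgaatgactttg

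The windows of Lilr4b and Gpr84 hold no capitals, which says only that these letters are not in this stretch. That of Clec5a has 2 cores, 81 and 55 bases before the start site. Fcgr3 has 1, at 15 bases before it. Among the other genes the core stood in the windows of Clec4d (3 matches), Clec4e (2), Cd300lf (2) and Pilra (1), and not in that of Fcgr2b. In all, 7 of 10 windows of 6 genes held it (Fcgr3 has 2 overlapping windows), beside 28.3% of all 32851 windows of this length. TTGCNNAA, a C/EBP pattern, was present in windows of 3 genes (Clec4e, Pilra and Fcgr3), beside 10.8% of all windows. The AP-1 pattern TGANTCA was in 0 windows of these genes and in 7.81% of all. The TATA letters TATAAA were in those of 4 genes (Lilr4b, Clec4e, Clec5a and Cd300lf) and in 13.6% of all. All patterns were read on both strands, and no match overlapped another. A match describes the letters and is not a binding site.

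The comparison of the injured left with the uninjured right hemisphere asks how these receptors differ with injury, with and without peptide. All left arrays carry lower array numbers than all right arrays, so hemisphere and array number cannot be told apart. Gpr84 was 3.66-fold higher on the left without peptide and 3.05-fold with it, and Fcgr3 1.23-fold and 1.19-fold. Lilr4b and Clec5a lay below the control median on all right arrays, so their folds are lower bounds, taken as the left mean over the mean control median of the right arrays. As point estimates without an error, these bounds were 2.11-fold for Lilr4b without peptide and 2.00-fold with it, and 1.12-fold and 1.09-fold for Clec5a. Those of Clec5a are 0.16 and 0.12 in log2, where its left arrays had an SD of 0.23 and 0.21 (n = 5), so they are uncertain. Lilrb4a, which 3 of 10 right arrays measured above the control median, had ratios of 3.57 and 3.30. The other inhibitory receptors and the lectin pair Clec4d and Clec4e did not pass the test. Of the 4 ITIM carriers Lilrb4a rose, and Pilra, Fcgr2b and Cd300lf did not pass.

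Lilrb4a, the inhibitory receptor also known as gp49B, lay without peptide at 8.67, 8.41, 8.77, 8.35 and 8.80 on the left arrays of replicates 1 to 5 and at 6.38, 6.64, 6.78, 6.90 and 7.12 on the right. With IDR1018 the left values were 8.33, 8.41, 8.70, 8.75 and 8.43, and the right values 7.01, 7.17, 6.60, 6.53 and 6.70. All 10 left arrays lay above all 10 right arrays, and the treatments overlapped within each hemisphere. On the right only 3 of 10 arrays exceeded the control median of their array, against 10 of 10 on the left. The left-right difference was 1.84 ± 0.13 (SE, n = 5 per group) without peptide and 1.72 ± 0.13 with it.

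Lilr4b (gp49A) was also separated by hemisphere. Its left values without peptide were 7.90, 7.91, 8.04, 7.76 and 8.32, and its right values 6.25, 6.17, 6.21, 5.69 and 5.84. With IDR1018 they were 7.61, 7.88, 7.78, 8.22 and 7.75 on the left and 6.10, 5.90, 5.75, 6.08 and 5.86 on the right. None of the 10 right arrays reached the control median and all 10 left arrays exceeded it. The difference was 1.95 ± 0.12 without and 1.91 ± 0.10 with peptide, against right values that lie at background, so it stands for the measured signals and not for a fold of the transcript.

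Gpr84 was above the control median on all 20 arrays. Without peptide it stood at 9.70, 9.57, 9.67, 9.40 and 9.73 on the left and at 8.04, 7.95, 7.55, 7.65 and 7.51 on the right. With IDR1018 it stood at 9.29, 9.51, 9.39, 9.62 and 9.20 on the left and at 7.72, 7.94, 7.69, 7.92 and 7.68 on the right. The hemispheres were separated by more than a full log2 unit between the lowest left and the highest right array. The difference was 1.87 ± 0.10 without peptide and 1.61 ± 0.08 with it. Within an animal it ranged from 1.62 to 2.22 without peptide and from 1.52 to 1.70 with it.

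**Figure D1:**
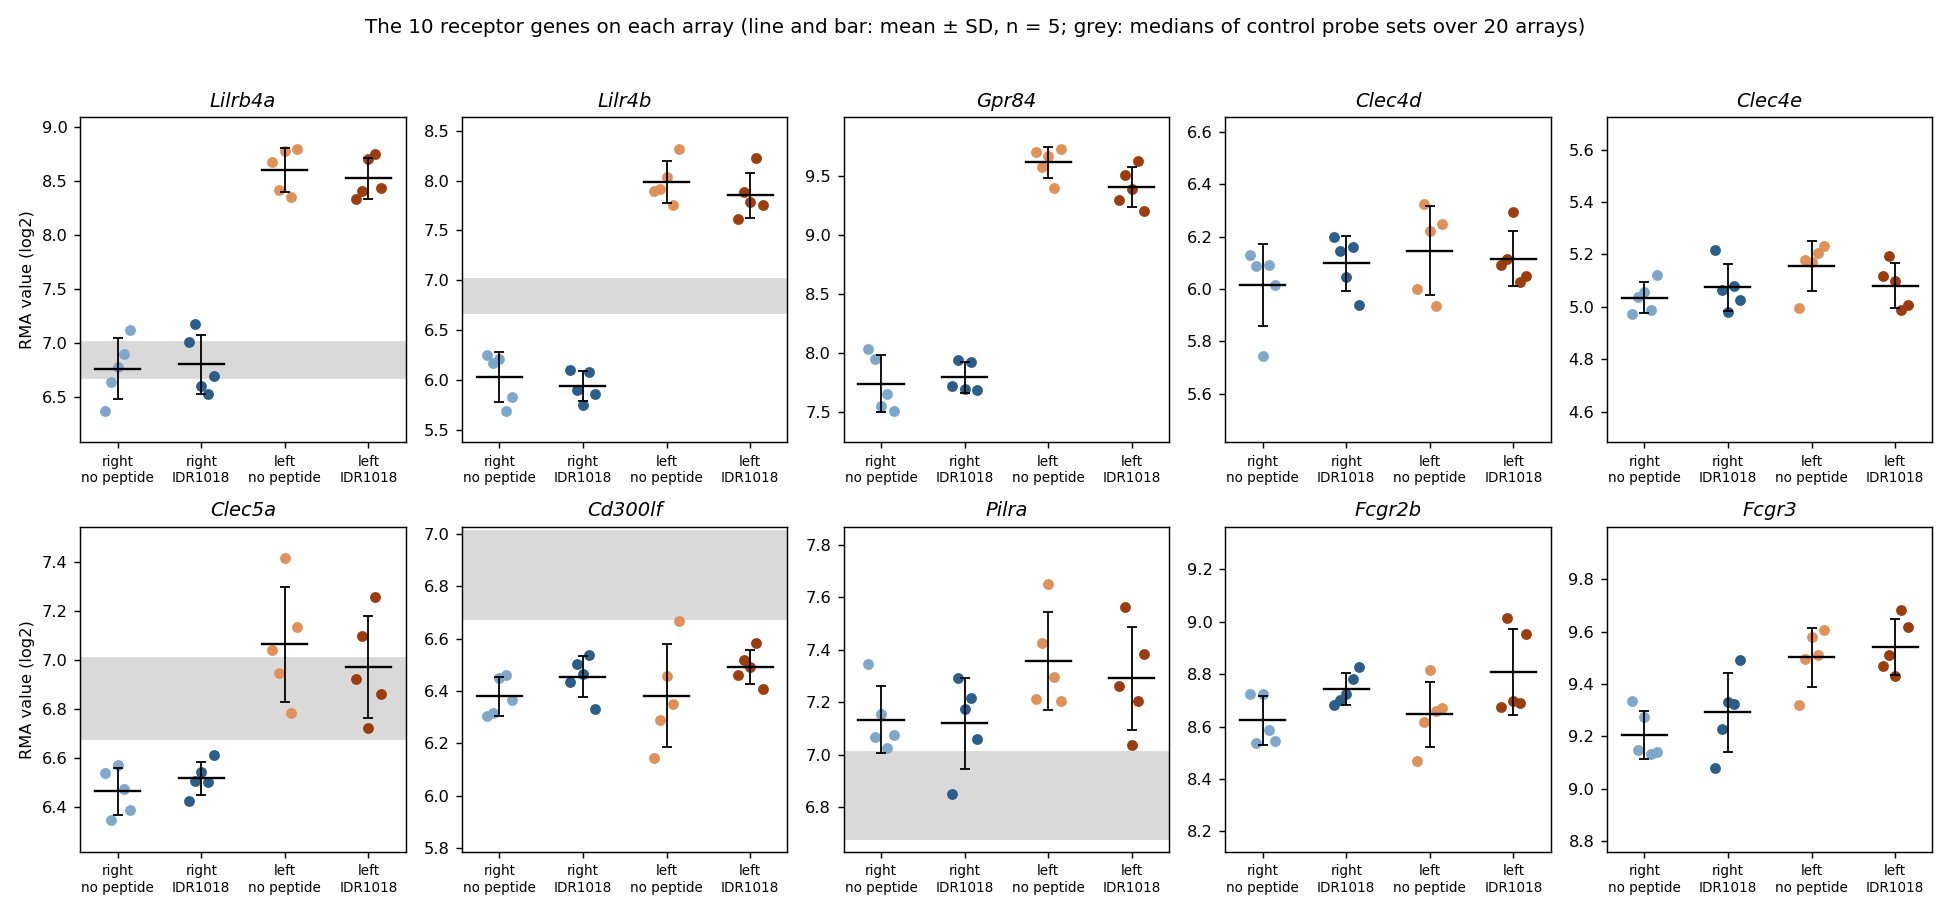
RMA values (log2, vertical axis) of the 10 receptor genes on each of 20 arrays by group (horizontal axis), with mean ± SD of 5 arrays; the grey band spans the control medians, 6.68 to 7.01. Lilrb4a, Lilr4b, Gpr84 and Clec5a have no overlap between left and right, and Clec4d, Clec4e and Cd300lf lie below the control median on every array.

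Clec5a (MDL-1), an activating lectin-like receptor that couples to DAP12, lay without peptide at 7.04, 6.95, 7.41, 6.78 and 7.13 on the left and at 6.54, 6.35, 6.57, 6.47 and 6.39 on the right. With IDR1018 the left values were 6.92, 7.10, 6.72, 7.26 and 6.86, and the right values 6.42, 6.50, 6.54, 6.50 and 6.61. The hemispheres did not overlap in either treatment. Of 10 left arrays 8 exceeded the control median, and 0 of 10 right arrays did. The difference of the measured signals was 0.60 ± 0.10 without and 0.46 ± 0.08 with peptide, with 5 of 5 animals higher on the left in each.

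Fcgr3, the activating low-affinity IgG receptor, lay above the control median on all arrays and differed by less between hemispheres. Its left values without peptide were 9.32, 9.50, 9.58, 9.51 and 9.60, and its right values 9.33, 9.15, 9.27, 9.13 and 9.14. With IDR1018 they were 9.47, 9.51, 9.43, 9.68 and 9.62 against 9.08, 9.23, 9.33, 9.32 and 9.49. The hemispheres overlapped in both treatments, and 9 of 10 animals were higher on the left. The difference was 0.30 ± 0.06 without and 0.25 ± 0.07 with peptide. With peptide its adjusted p by limma was 0.0392, and it became 0.0800, 0.130, 0.0599 and 0.124 without peptide replicates 1, 2, 3 and 4.

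Fcgr2b, the inhibitory IgG receptor that shares its ligand with Fcgr3, did not pass. Its group means were 8.65 ± 0.12 (SD, n = 5) on the left and 8.62 ± 0.09 on the right without peptide, and 8.81 ± 0.16 and 8.74 ± 0.06 with it. The left-right differences were 0.02 ± 0.06 (SE) and 0.06 ± 0.07, with 95% intervals from -0.12 to 0.16 and from -0.09 to 0.21.

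Pilra, an inhibitory receptor for O-glycosylated proteins, was above the control median on all 20 arrays. It stood at 7.36 ± 0.19 (SD, n = 5) on the left and 7.13 ± 0.13 on the right without peptide, and at 7.29 ± 0.20 and 7.12 ± 0.17 with it. The left-right differences of 0.22 ± 0.09 (SE) and 0.17 ± 0.10 did not pass, with 4 of 5 and 3 of 5 animals higher on the left. Without no-peptide replicate 1, whose left hemisphere was the lower one, the first became 0.31 and passed by limma (adjusted p = 0.0344; 0.0344 to 0.506 over the alternatives).

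The other receptors lay below the control median on all 20 arrays, which limits what their values can show. Cd300lf (CLM-1), an inhibitory receptor for phospholipids, ranged from 6.14 to 6.67 and differed by 0.00 ± 0.08 without and 0.04 ± 0.05 with peptide. Clec4e (Mincle), which senses glycolipids and a nuclear protein of dying cells, ranged from 4.97 to 5.23. It differed by 0.12 ± 0.05 without peptide, higher on the left in 5 of 5 animals, and by 0.01 ± 0.05 with it. Without no-peptide replicate 1 the former passed (0.15, adjusted p = 0.0427 by limma; 0.0427 to 0.343 over the alternatives). Clec4d, which pairs with Clec4e on the cell surface, ranged from 5.74 to 6.33 and differed by 0.13 ± 0.09 and 0.02 ± 0.06.

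**Figure D2:**
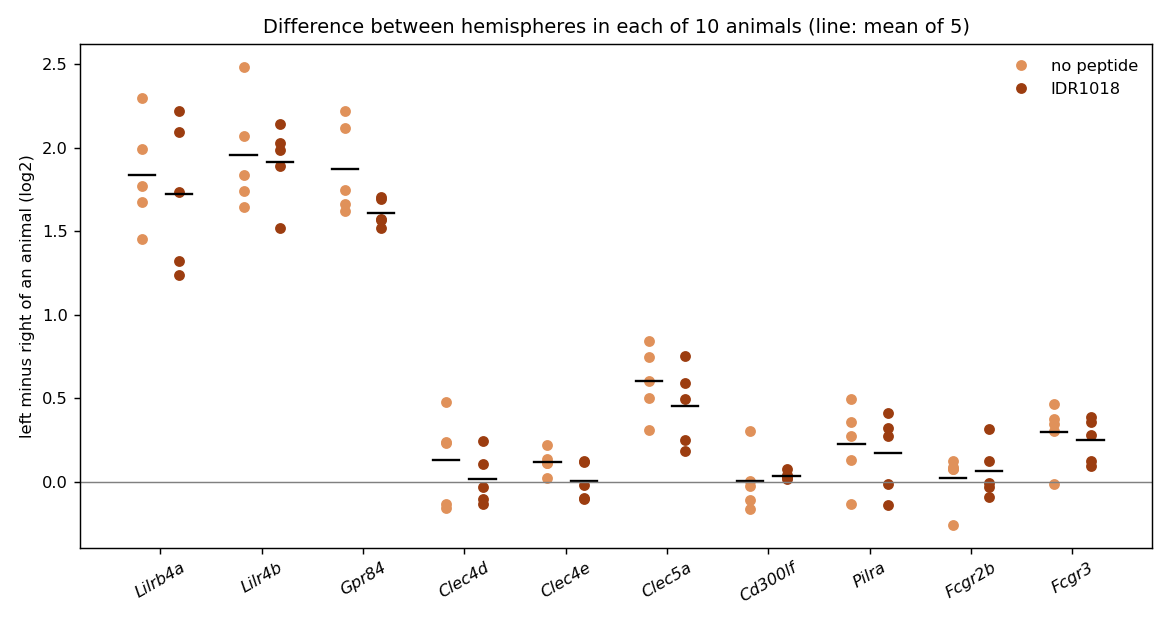
Left minus right value (log2, vertical axis) of each receptor gene (horizontal axis) in each of 10 animals, 5 without peptide and 5 with IDR1018, with the mean of 5 as a line. All animals lie above 1.2 for Lilrb4a, Lilr4b and Gpr84 and above 0 for Clec5a, and the other genes lie close to or across 0.

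In each treatment 5 of 10 genes were called higher on the left by limma after Benjamini-Hochberg adjustment over 28187 probe sets, and 0 lower. They were Lilrb4a, Lilr4b, Gpr84, Clec5a and Fcgr3 both times. Of all probe sets 9.21% were higher on the left without peptide and 7.77% with it, and 8.84% and 7.07% were lower. The counts of gene lists further on stand beside these shares. In each treatment 4 of the genes had all 5 left arrays above all 5 right arrays, beside 7.47% and 7.09% of all probe sets. As the names were drawn up with this contrast in view, nothing is read from these counts. The median difference of the 10 genes was 0.26 without and 0.21 with peptide, and over all probe sets it was -0.01 and -0.01.

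The list of 4 adaptors held Tyrobp, Hcst and Fcer1g, named above, and Cd247, which is not among the adaptors named for these receptors. Of the 4, Tyrobp and Fcer1g were higher on the left in both treatments. Tyrobp rose from 9.85 ± 0.12 (SD, n = 5) to 10.20 ± 0.08 without peptide, a difference of 0.35 ± 0.06 (SE, adjusted p = 0.00235 by limma), and by 0.24 ± 0.07 with it (adjusted p = 0.0322). Fcer1g rose by 0.18 ± 0.06 and 0.20 ± 0.06 (adjusted p = 0.0403 and 0.0355). Without peptide the call of Fcer1g was lost without no-peptide replicates 2, 3, 4 or 5 (adjusted p up to 0.153 by limma), with the animal as a block (0.0716), after median centring (0.0560) and with the background covariate (0.280). With peptide it was lost without peptide replicates 2, 3, 4 or 5 (up to 0.141) and with the covariate (0.0647). The call of Tyrobp with peptide was lost without peptide replicates 1, 2, 3 or 4 (up to 0.129) and with the covariate (0.0837). Hcst was at -0.15 ± 0.06 and -0.06 ± 0.04 and did not pass.

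Of 12 measured signalling enzymes downstream of ITAMs (immunoreceptor tyrosine-based activation motifs), 4 rose without peptide and 3 with it, beside 9.21% and 7.77% of all probe sets. Over the alternatives these counts ran from 2 to 4 and from 0 to 4. They were Vav1, Lcp2, Bcl10 and Malt1, and Blnk, Lcp2 and Malt1. The kinase Syk (-0.08 ± 0.05 and -0.05 ± 0.03) and Card9, which links lectin receptors to NF-kB (-0.09 ± 0.05 and -0.07 ± 0.05), did not pass. Of 6 phosphatases and docking proteins that act at ITIMs, Ptpn11 and Dok2 rose and Inpp5d fell without peptide, while 1 gene, Ptpn11, rose with it. Inpp5d, the SHIP-1 phosphatase, was at -0.20 ± 0.05 without peptide (adjusted p = 0.0176 by limma). That call was lost without no-peptide replicates 1, 2, 4 or 5, with adjusted p up to 0.0731. With peptide Inpp5d was at -0.17 ± 0.05 (adjusted p = 0.0511), and 0.0353 with the animal as a block. Ptpn6 did not pass (0.07 ± 0.03 and 0.07 ± 0.05).

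**Figure D3:**
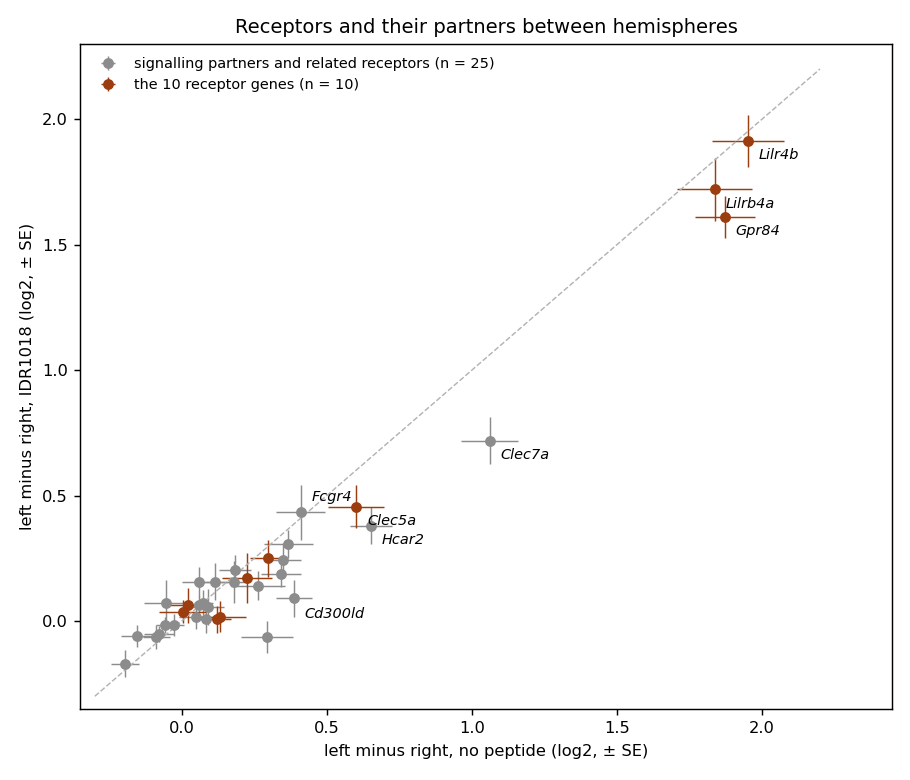
Left minus right difference without peptide (horizontal axis) and with IDR1018 (vertical axis), both log2 with SE from limma, for the 10 receptor genes and a panel of partners and related receptors; the dashed line marks equal values. Lilr4b, Lilrb4a and Gpr84 lie between 1.61 and 1.95 on both axes. Lilr4b, Clec5a, Clec7a and Pilrb1 are among the genes below the control median on all right arrays.

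Of 12 measured other LILR, PIR, PILR and CD300 genes 2 rose without peptide and 0 with it, beside 9.21% and 7.77% of all probe sets. Cd300ld, an activating relative of Cd300lf, rose by 0.39 ± 0.06 (adjusted p = 0.00158 by limma) from values below the control median on all 20 arrays, and was at 0.09 ± 0.07 with peptide. Pilrb1, the activating partner of Pilra, rose by 0.18 ± 0.05 (adjusted p = 0.0221), a call lost without no-peptide replicates 1, 3 or 4 (up to 0.0703), with all groups in 1 fit (0.0771) and with the covariate (0.0961). It was at 0.16 ± 0.08 with peptide. Pilrb1 lay below the control median on all right arrays, and above it on 1 of 5 left arrays without peptide and 2 of 5 with it. Pirb, an inhibitory relative of Lilrb4a, was at -0.03 ± 0.04 and -0.02 ± 0.04.

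Of 23 other C-type lectin receptors 2 rose and 1 fell without peptide, and 1 rose and 1 fell with it, counts not far from the shares over all probe sets. The rise common to both was that of Clec7a (Dectin-1), the beta-glucan receptor, at 1.06 ± 0.10 and 0.72 ± 0.09 (adjusted p = 8.17e-05 and 0.000485 by limma). Clec7a lay below the control median on all 10 right arrays and above it on all 10 left arrays. The lower bounds of its folds, point estimates without an error, were 1.52 and 1.24. Clec1a fell in both. Of 9 other Fc receptors Fcgr4 and Fcrls rose in both, with Fcgr4, an activating IgG receptor, at 0.41 ± 0.08 and 0.43 ± 0.11 (adjusted p = 0.00664 and 0.0212). With peptide the call of Fcgr4 was lost without peptide replicates 3 or 5 (up to 0.0682) and with the covariate (0.0504). Fcgr1 did not pass (0.12 ± 0.04 and 0.16 ± 0.07), except with peptide when the animal was a block (adjusted p = 0.0359).

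Of 18 other paired myeloid receptors Trem1 rose without peptide (0.29 ± 0.09, adjusted p = 0.0393 by limma), from values below the control median on all 20 arrays. The call was lost without no-peptide replicates 2, 3 or 5 (adjusted p up to 0.159), with the animal as a block (0.0899), with array weights (0.0690) and with the covariate (0.170). Trem1 was at -0.06 ± 0.06 with peptide. Siglech and Cd33 fell in both, Siglece fell with peptide, and Trem2 did not pass (0.08 ± 0.05 and 0.01 ± 0.06). Of 12 metabolite receptors, set beside Gpr84, Hcar2 and Gpr183 rose in both. Hcar2, a receptor for ketone bodies and niacin, was at 0.65 ± 0.07 and 0.38 ± 0.07 (adjusted p = 0.000229 and 0.00504). Of 8 ligands and counter-receptors Npdc1 fell without peptide and Sap130 rose with it. Sap130 codes for a Sin3A-associated protein and only shares its name with the nuclear protein that Clec4e senses, so its value says nothing about a ligand. The median differences of these 6 lists of relatives, lectins, Fc receptors, paired receptors, metabolite receptors and ligands lay between -0.04 and 0.05.

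Of 9 measured myeloid transcription factors 6 rose in each treatment, beside 9.21% and 7.77% of all probe sets, with medians of 0.34 and 0.19. Spi1, which codes for PU.1, was at 0.37 ± 0.09 and 0.31 ± 0.05 (adjusted p = 0.0117 and 0.0031 by limma). Its call without peptide was lost without no-peptide replicates 4 or 5 (up to 0.0665) and with the covariate (0.0794). Cebpb, a C/EBP factor of inflammation, rose by 0.34 ± 0.07 and 0.19 ± 0.05 (adjusted p = 0.00597 and 0.0352), the latter call being lost without peptide replicates 1, 2, 3 or 4 (up to 0.132) and with the covariate (0.0963).

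Markers of the cells that could carry these receptors moved in both directions. Of 9 measured microglial markers 4 fell and 1 rose without peptide, among them Tmem119 (-0.52 ± 0.08, adjusted p = 0.00151 by limma) and P2ry12 (-0.47 ± 0.06, adjusted p = 0.000622). With peptide 2 fell. The log2 of their summed level ran from 12.43 to 12.50 on the left and from 12.50 to 12.72 on the right without peptide, and from 12.37 to 12.54 and from 12.46 to 12.66 with it. Of 6 monocyte markers Chil3 and Ifitm6 rose and Itga4 fell without peptide, and Ifitm6 rose and Itga4 fell with it. Their summed level ran from 11.11 to 11.29 on the left and 11.21 to 11.29 on the right without peptide. With peptide it ran from 11.03 to 11.19 and 11.18 to 11.28. Such sums follow the markers with the highest values. Here that was Vcan, with group means from 10.73 to 10.83, against 8.29 to 8.62 for Itga4. The sum therefore says little about the other monocyte markers. Chil3 and Ccr2, the defining chemokine receptor of blood monocytes, lay below the control median on all 20 arrays. Ifitm6 exceeded it on 2 of 5 left arrays without peptide, on 1 of 5 with it and on 0 right arrays.

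Of 12 neutrophil markers 0 passed without peptide and 1, Cxcr2, rose with it from values below the control median on all arrays. Differences were above 0 for 10 of the 12 without and 9 with peptide, with medians of 0.07 and 0.03. Of all probe sets 55% and 55.7% were below 0. At least 7 of the 12 were below the control median on all arrays of every group, S100a8, Ngp and Ly6g among them. Their summed level ran from 10.06 to 10.28 on the left and 10.10 to 10.16 on the right without peptide, and from 10.16 to 10.20 and 10.09 to 10.23 with it. Of 8 border macrophage markers F13a1 fell without peptide and 0 passed with it, with summed levels from 10.80 to 11.32 on the left and from 11.04 to 11.25 on the right. Of 7 lymphocyte markers 0 passed, with summed levels from 9.57 to 9.71 and from 9.65 to 9.86. Among markers of other brain cells, Gfap of astrocytes was higher on the left by 0.32 ± 0.05 and 0.24 ± 0.05 (adjusted p = 0.0017 and 0.00782 by limma). Pecam1 of endothelium was higher by 0.36 ± 0.07 and 0.21 ± 0.06 (adjusted p = 0.00684 and 0.0318), and Tubb3 of neurons was at -0.39 ± 0.05 and -0.30 ± 0.05 (adjusted p = 0.000697 and 0.0025). These were 1 of 6, 1 of 6 and 1 of 8 markers called without peptide. With peptide Aldh1l1 of astrocytes was called as well. In each treatment 3 of 6 astrocyte and 2 of 6 endothelial markers had differences below 0. Of the 8 neuronal markers 8 were below 0 without peptide and 7 with it. The part of these cell types and of cell numbers in the receptor differences was not tested.

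The comparison of IDR1018 with no peptide asks whether the peptide changed these receptors. No receptor gene passed the test in either hemisphere. In the injured left hemisphere 7 of 10 values were lower with peptide, beside 49.2% of all probe sets, with medians of -0.07 and 0.00. The arrays without peptide also entered the left-right contrast known when the genes were named, so nothing is read from this count. Gpr84 had the largest difference: its mean was 9.40 ± 0.17 (SD, n = 5) under IDR1018 against 9.61 ± 0.13. Its log2 difference was -0.21 ± 0.08 (SE), with a 95% interval from -0.39 to -0.03 and adjusted p = 0.999 by limma. The 2 groups overlapped.

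Lilr4b was at -0.13 ± 0.12 and Lilrb4a at -0.08 ± 0.11, with intervals from -0.39 to 0.12 and from -0.31 to 0.15. Clec5a was at -0.09 ± 0.12 and Pilra at -0.07 ± 0.10. The Fc receptors had values above 0, Fcgr2b at 0.16 ± 0.08 (interval -0.01 to 0.34) and Fcgr3 at 0.04 ± 0.06, and so did Cd300lf at 0.11 ± 0.08. All 10 adjusted p were 0.999 by limma, and 1 gene, Gpr84, had an unadjusted p below 0.05. Of all 28187 probe sets 0% were called and 1226 (4.35%) had an unadjusted p below 0.05.

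In the uninjured right hemisphere 8 of 10 values were higher and 2 lower with peptide, with a median of 0.05 against 0.00 over all probe sets. Of all probe sets 47.9% were lower, and nothing is read from this count either. Fcgr2b differed most in relation to its error, with a mean of 8.74 ± 0.06 (SD, n = 5) under IDR1018 against 8.62 ± 0.09. The difference was 0.12 ± 0.05 (SE), with an interval from 0.01 to 0.23 and an adjusted p of 1 by limma, and the groups overlapped. Lilrb4a was at 0.04 ± 0.15, Lilr4b at -0.09 ± 0.11 and Gpr84 at 0.05 ± 0.10. Of all probe sets 0.00355% were called, and 1218 (4.32%) had an unadjusted p below 0.05. Fcgr2b was the 1 receptor gene among these.

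**Figure D4:**
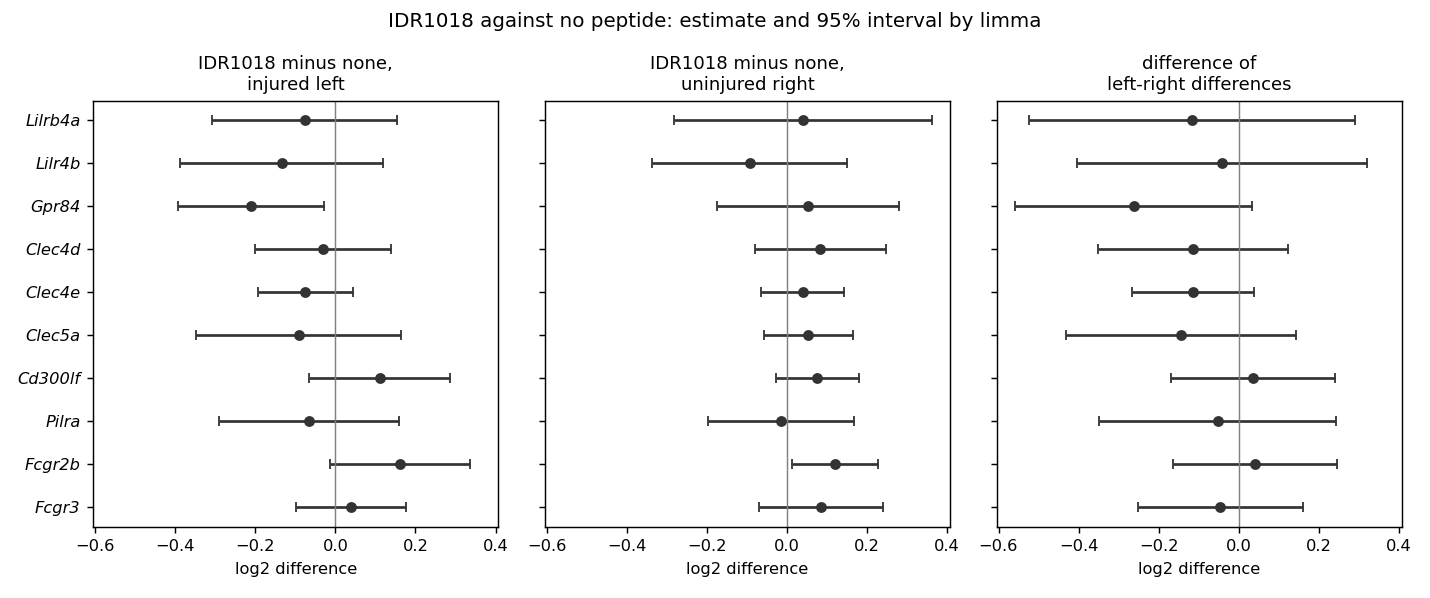
Log2 difference (horizontal axis) with its 95% interval by limma for each receptor gene (vertical axis): IDR1018 minus none in the left hemisphere, the same in the right, and, in the last panel, how far the hemisphere difference moved with peptide. No gene passed after adjustment; the intervals of Gpr84 on the left and Fcgr2b on the right leave 0 out.

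The difference of the left-right differences asks whether the left-right difference itself changed with IDR1018. It was below 0 for 8 of 10 genes, beside 51.2% of all probe sets, with medians of -0.08 and -0.002. Of the 10 genes 0 passed by limma (all adjusted p = 1), and 0 of 10 had an unadjusted p below 0.05. The left-right difference without peptide, known when the genes were named, enters this comparison, so nothing is read from the count below 0. Gpr84 had the largest value, -0.26 ± 0.14 (SE), with an interval from -0.56 to 0.03. That of Lilrb4a was -0.12 ± 0.20 (interval -0.52 to 0.29), that of Lilr4b -0.04 ± 0.17 (-0.40 to 0.32) and that of Clec5a -0.14 ± 0.14 (-0.43 to 0.14). Over all probe sets 0% were called and 781 (2.77%) had an unadjusted p below 0.05. The intervals leave room for a fall of Gpr84 by up to 0.56 of its 1.87, so a smaller response with peptide can neither be shown nor set aside at this number of animals.

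After adjustment 0 members of the 10 pathway lists passed in these 3 comparisons. In the difference of differences, 95% intervals left 0 out for Trem1 (-0.60 to -0.12), Cd300ld (-0.51 to -0.09), Hcar2 (-0.50 to -0.05) and Clec7a (-0.65 to -0.04). Those of the other panel genes held 0, and 2.77% of all probe sets had an unadjusted p below 0.05 by limma. Trem1 and Cd300ld lay below the control median on all 20 arrays. The adaptor Tyrobp was at -0.16 ± 0.06 with peptide on the left (adjusted p = 0.999 by limma) and Fcer1g at 0.07 ± 0.05. Clec7a was at -0.34 ± 0.11 on the left (adjusted p = 0.999) and at 0.00 ± 0.09 on the right, with a difference of differences of -0.34 ± 0.15 (adjusted p = 1).

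Among the receptors, variation between animals of 1 group was shared to different degrees. With the 4 group means removed, the Pearson r over 20 arrays was above 0 in 33 of 45 gene pairs, with a median of 0.18 and a range from -0.33 to 0.70. The arrays of an animal share that animal, and all values share the normalisation, so r is given as a description. Pilra and Fcgr2b were most alike (0.70), followed by Lilr4b and Gpr84 (0.65) and by Fcgr2b and Fcgr3 (0.56). The neighbours Lilrb4a and Lilr4b had r = 0.08 and the neighbours Clec4d and Clec4e r = 0.29. Lilrb4a was the gene least tied to the rest, at r = -0.02 with the mean of the other 9, whereas Clec5a (0.57), Lilr4b (0.55) and Cd300lf (0.55) were the most tied. Cd300lf lay below the control median on all 20 arrays, and Clec5a and Lilr4b on all 10 right arrays. The part of shared background in their r was not tested. The median over pairs was 0.30 among the 10 left arrays and 0.01 among the 10 right arrays.

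**Figure D5:**
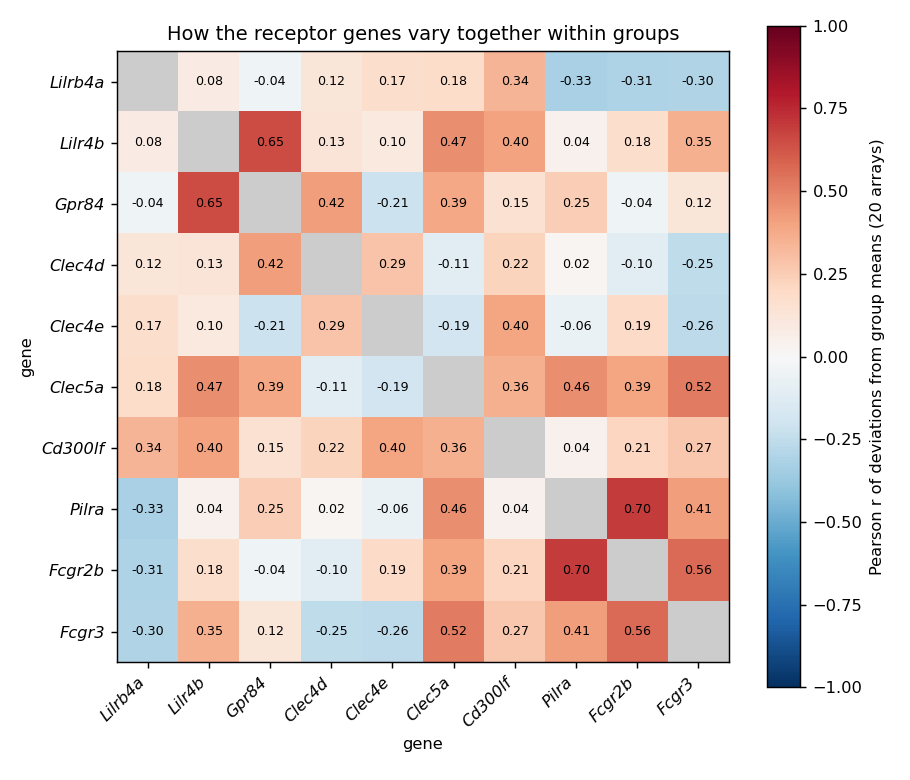
Pearson r over 20 arrays, after removal of the 4 group means, for each pair of the 10 receptor genes (both axes; colour from -1 to 1). The pair Pilra and Fcgr2b is highest at 0.70, and Lilrb4a has r from -0.33 to 0.34 with the others.

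Averaged over the 10 genes after scaling each to its SD, the left arrays without peptide spread most, with replicates 3 and 5 at 0.93 and 0.85 and replicates 1 and 4 at -0.95 and -0.70 around their group mean. With peptide, left replicates 2 and 4 were highest at 0.62 and 0.48. Of 19927 other genes, those whose deviations from the group means were most like this average over the 20 arrays were Maff (Pearson r = 0.86), Ifitm3 (0.83), Tgfb1 (0.83), Hcls1 (0.82) and Hal (0.81). Maff codes for a small transcription factor of the bZIP type, Ifitm3 for an interferon-induced membrane protein, Tgfb1 for a cytokine, Hcls1 for a blood cell adaptor protein and Hal for a histidine-degrading enzyme. Ranked by Spearman's rho, 1 of these 5 stayed among the first 5.

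The coding genes next to the receptors on the chromosome were looked up in RefSeq, 3 on each side. Of 37 measured neighbours 4 were higher and 3 lower on the left without peptide, with a median of -0.02, and 3 higher and 2 lower with it, with a median of -0.04. Over all probe sets 9.21% were higher and 8.84% lower without peptide, and 7.77% and 7.07% with it, so nothing is read from the neighbours' counts. Itga5, an integrin subunit near Gpr84, was higher by 0.57 ± 0.06 and 0.58 ± 0.05 (adjusted p = 0.000117 and 4.07e-05 by limma). Grik2, a glutamate receptor subunit near the Lilr pair, was lower by -0.27 ± 0.04 and -0.29 ± 0.06 (adjusted p = 8e-04 and 0.0075).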

How the data were processed

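Total RNA of 20 hemispheres was hybridised to 1 array each. The deposited values are log2 summaries made by the authors with RMA (affy 1.38.1), per the submitters' processing notes; the chip definition is not given in the sources used here. RMA on whole tissue can compress differences near background. The values were used as deposited. Of 34760 probe sets, 6573 with identifiers before the first annotated one were taken as controls and 28187 were tested. Probe sets with several genes named no gene.

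Comparisons used limma 3.58.1 (R 4.3.3), fitted to the groups compared (all 4 for the difference of differences), with Benjamini-Hochberg adjustment over 28187 probe sets and a threshold of 0.05. The steps were tested on simulated data. The 10 genes and the lists were chosen with earlier results of these data known. The text names all 10 genes, a fixed panel from the lists, the cell type markers and the 5 genes most like the receptors; neighbours and other list members that passed were named after their values were seen. Of 197 list genes 180 were measured. Labels do not say that samples of a group are separate litters, so p-values measure the spread between these animals.

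The hemispheres that share a replicate number also share a specimen number, so they come from 1 animal; their deviations from the group means correlated at 0.04 to 0.25 over probe sets. The array numbers in the labels are lower for all left than for all right arrays. What they stand for is not given in the sources used here, and their part in the left-right differences cannot be told apart from that of injury. The alternatives were the replicate block, median centring, a filter on low values, array weights, a background covariate, a variance trend, all groups in 1 fit and leaving out each animal. A planned comparison with other probe sets of a gene gave no value, since each gene had 1.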

Additional observations from a re-analysis of the deposited data

Results flagged for a closer look

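1 of 40 sets of 5 arrays (10 genes in 4 groups) had an array far from the rest by Dixon's ratio, where chance gives about 1 in 20. Clec4e on the left array of no-peptide replicate 1 was at 4.99, below the other 4 left arrays without peptide, of which the nearest was at 5.17. The gap was 0.73 of the range of the group. All values of this gene lie below the control median. No receptor gene had a difference of left-right differences past the threshold.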

How the results depend on the processing

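The count of 5 receptor genes higher on the left stayed between 4 and 7 without peptide and between 4 and 5 with it over 12 alternatives each. Lilrb4a, Lilr4b and Gpr84 passed in all of these, and Clec5a in all 11 that could test it, since its mean falls below the filter on low values. Fcgr3 did not pass in 1 of 12 without peptide (0.24 with the background covariate, adjusted p = 0.0505) and in 6 of 12 with it (adjusted p up to 0.130). The count of 7 arose without no-peptide replicate 1. With the replicate block, which pairs the hemispheres of an animal, the counts were 5, 5 and 0 for the difference of differences, and no call of the 10 genes changed; among the partners those of Fcer1g and Trem1 without peptide were lost and those of Inpp5d and Fcgr1 with peptide gained. The counts of receptor genes for IDR1018 against none were 0 in every alternative; over all probe sets these counts were 0 or 1 in each. Of the 5 genes most like the receptors, 5 stayed after median centring and 1 with Spearman's rho, both chosen after seeing the data. Without no-peptide replicates 4 and 5 the probe sets higher on the left without peptide were 1497 and 1451 in place of 2597, and 1631 with the background covariate. Without peptide replicates 2 and 4 those with peptide were 1365 and 1422 in place of 2191. Over the 10 pathway lists and these alternatives, 33 counts without and 44 with peptide moved by over 1.5 times. For the adaptors the counts ran from 1 to 3 and from 0 to 3. For ITAM enzymes they ran from 2 to 4 and from 0 to 4, and for ITIM proteins from 0 to 3 and from 0 to 2. For other LILR, PIR, PILR and CD300 genes they ran from 0 to 2 and from 0 to 1. Those of myeloid transcription factors ran from 4 to 6 and from 3 to 6. Clec4d, Clec4e and Cd300lf lie at background, which limits what their values can show.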
